A study of Mus musculus with 6 samples.

Results

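Interferons induce a set of small proteins that sit in cellular membranes, and the expression of 10 of their genes was followed in the pancreas of mice with caerulein-induced acute pancreatitis (AP), with and without polyI:C pretreatment. The genes were the Ifi27 family members Ifi27, Ifi27l2a and Ifi27l2b, the Ifitm genes Ifitm1, Ifitm2 and Ifitm3, and Bst2, Ly6e, Ifi35 and Ifi44. They were picked by name among the 22556 genes listed for each mouse, and all 10 had values and passed the filter of a mean of at least 1 TPM, a unit that corrects for gene length and library size. The list was proposed with the levels in the 3 groups already known, so their differences are given with standard errors as a description. Which of them passed the threshold set for the whole table is stated beside the share of all genes that did, also as a description, and no p is given for any of them.

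RNA of the pancreas was sequenced from 6 wild-type C57BL/6 mice aged 8 weeks, with 2 mice in each group. Saline mice received saline. AP mice received caerulein, a peptide that stimulates the cholecystokinin receptor of acinar cells, in 10 injections of 200 μg/kg given 1 h apart. PolyI:C-pretreated AP mice, or pretreated mice for short, received the same course of caerulein after polyI:C, a synthetic double-stranded RNA, had been injected at 10 mg/kg. Per the methods of the study, mice of its AP models were male and fasted for 8 h beforehand. Saline was injected in place of polyI:C as a control. PolyI:C preceded caerulein by 8 h in the main model of the study and by 1 h in another of its experiments, and the interval is not given for the sequenced mice themselves. The pancreas was collected 24 h after the first caerulein dose. No group with polyI:C alone was analysed here, so an effect of polyI:C and an effect of polyI:C on pancreatitis cannot be told apart. The sources do not say whether mice with equal numbers belong together, and each group value rests on 2 animals. Read numbers on the listed genes, estimated from the spacing of low TPM values, were 3296080 and 3974437 in the saline mice and 6932908 to 10851999 in the others.

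PolyI:C is recognised by Toll-like receptor 3 and by cytosolic RNA sensors, which lead to the production of IFN-β. IFN-β binds the receptor IFNAR, and the transcription factors activated in response bind the interferon-stimulated response element (ISRE) in the promoters of interferon-induced genes. Ifitm proteins lie in plasma and endosomal membranes and hinder the fusion of enveloped viruses with them. Bst2, also called tetherin, holds budding virus particles at the cell surface. Ly6e is a small surface protein with a lipid anchor that affects the entry of several viruses. The Ifi27 proteins are short and hydrophobic and have been placed in mitochondrial and nuclear membranes. Ifi35 and Ifi44 are interferon-induced proteins of the cell interior that are not held in membranes, so the description as membrane proteins does not cover these genes.

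Levels of the 10 genes added up to 646 and 497 TPM in saline mice, 1503 and 1715 TPM in AP mice, then 4766 and 5099.8 TPM in the pretreated mice. The sums of the 3 groups did not overlap. Ifitm3 held 39.4% of the mean sum in the pretreated mice, Ifi27l2a held 20.8% and Bst2 held 19.8%. In the saline mice the largest part, 25.0%, was that of Ifi27, followed by Ifitm3 with 21.9% and Ly6e with 21.0%. The saline levels of Ifitm3 overlapped with those of Ifi27 and of Ly6e, while Ifi27 was above Ly6e in both mice.

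**Figure D1:**
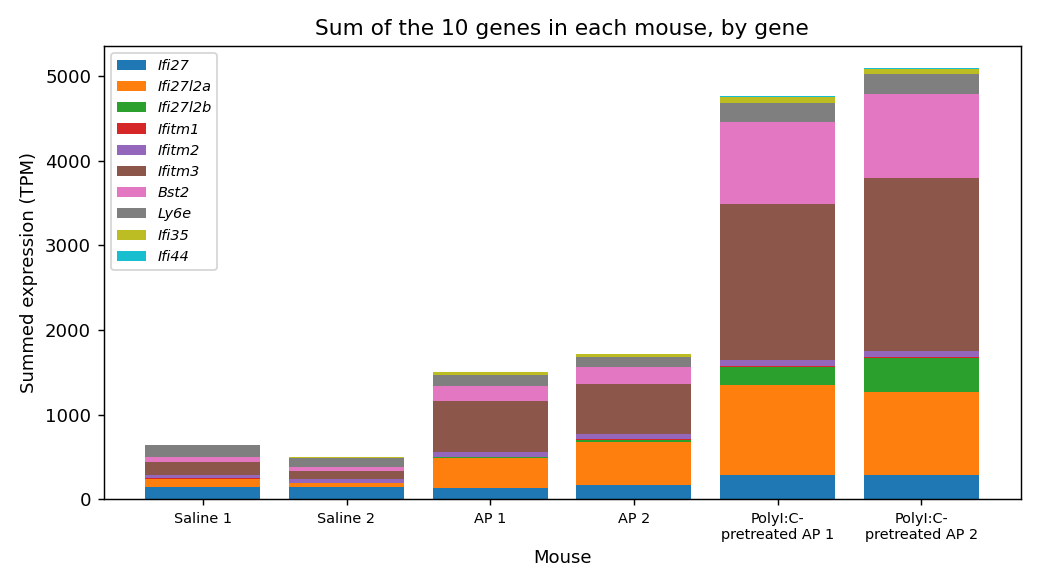
Summed expression of the 10 genes in each of the 6 mice (TPM, bars from 0), with the part of each gene in its own colour. The sums lie between 497 and 646 TPM in saline mice, between 1503 and 1715 TPM in AP mice, then between 4766 and 5099.8 TPM in the pretreated mice, and Ifitm3, Ifi27l2a and Bst2 take up most of the highest bars.

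A linear model of log2(TPM + 0.5) was fitted with limma over 16814 genes, and a gene was taken to pass the threshold when its fold change was at least 2 and its p, adjusted by Benjamini-Hochberg, did not exceed 0.05. In AP against saline mice, 4 of the 10 genes (Ifi27l2a, Ifitm3, Ifi35 and Bst2) passed in the upward direction, where 18.2% of all tested genes did. In pretreated against AP mice, 4 of 10 (Ifi27l2b, Ifi44, Bst2 and Ifitm3) passed upward, where 0.44% of all tested genes did, and in pretreated against saline mice 7 of 10 passed upward, where 16.9% did. After median-of-ratios scaling 6 of 10 passed in this last comparison, and over all genes 1324 passed upward and 984 downward, against 2838 and 500 without it. None of the 10 passed with limma in the downward direction in any of these comparisons, where 4.03%, 0.404% and 2.97% of all tested genes did. Because the genes were listed with these values in view, nothing is read from the difference between their share and that of all genes.

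Over the 10 genes, the log2 fold change had a median of 1.16 in AP against saline mice and 1.12 in pretreated against AP mice, beside 0.45 and 0.04 over all tested genes. TPM of the listed genes add up to a nearly fixed total, so a fall of abundant transcripts among them can raise the values of other genes. Of the acinar list, 10 of 24 genes were among those listed (given below with the cell type markers). The part of their fall in these medians was not tested. Median-of-ratios scaling does not rest on the total of TPM, and by construction it brings the median of all genes near 0. After it, the median of all genes was 0.05 and 0.02, and that of the 10 genes was 0.76 and 1.09. Every one of the 10 genes was higher in both pretreated mice than in either AP mouse, as were 27.7% of all tested genes, while 22.1% of all tested genes were lower in both. Against saline mice all 10 were higher in both pretreated mice, as were 54.4% of all tested genes, and 8 of 10 had both AP mice above both saline mice, as did 52.6% of all tested genes.

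Leaving out mice changed the calls of pretreated against AP mice. With either AP mouse or either pretreated mouse left out, upward calls were lost among the 10 genes and among all tested genes. The log2 fold changes of the genes that had passed ran from 3.81 to 4.94 for Ifi27l2b and from 2.95 to 3.21 for Ifi44. They ran from 2.27 to 2.50 for Bst2 and from 1.62 to 1.765 for Ifitm3. In AP against saline mice they ran from 2.21 to 3.06 for Ifi27l2a and from 1.94 to 2.66 for Ifitm3. For Ifi35 they ran from 1.835 to 2.31, and for Bst2 from 1.57 to 1.80.

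**Figure D2:**
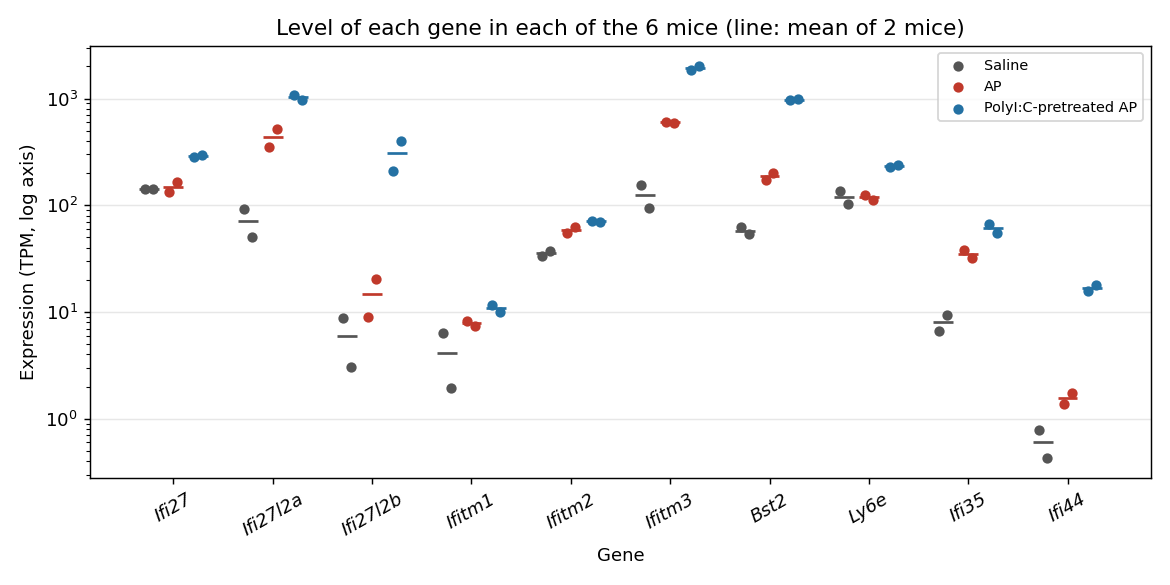
Expression of each gene (TPM, log axis) in the 2 mice of each group (saline, AP and pretreated), with points for mice and lines for group means. The pretreated mice lie above the AP mice for all 10 genes, and the AP and saline mice overlap for Ifi27 and Ly6e.

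Among the restriction factors at the cell surface, Bst2 (ENSMUSG00000046718, chromosome 8 of GRCm38 from 71534255 to 71537456, minus strand) was measured at 62.0 and 53.9 TPM in saline mice, 172 and 202 TPM in AP mice, then 961 and 994 TPM in the pretreated mice. The 3 groups were well apart, and the mice within each group lay close together. The group means were 57.9 ± 5.76 TPM (SD, n = 2), 187 ± 21.2 TPM and 977 ± 23.2 TPM, respectively. Its log2 fold change came to 1.68 in AP against saline mice and 2.39 in pretreated against AP mice, both with a standard error of 0.12. Bst2 is also a marker of plasmacytoid dendritic cells, and Siglech, a defining marker of these cells, was at 0.07 to 1.67 TPM over the 6 mice.

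Promoter sequences of 6 of the 10 genes were at hand from RefSeq (GRCm38.p6), and the 250 bases before each annotated start were searched on both strands for the ISRE core, a pair of GAAA with any 2 bases between them. The promoters of Bst2 and Ifitm2 held it, as did 2.98% of 32851 promoters of the same length. Counted by gene, 3.46% of 27025 genes held it, and so did 16 of the 34 other interferon-induced genes with a promoter at hand. The Bst2 promoter held 2 overlapping copies. The sequences are shown to place these matches beside the measured changes, with the matched bases in capitals, written along the strand of the gene. Distances are from the RefSeq start, which is not the start used for the gene coordinates given elsewhere. The gene coordinates of Ifitm2, Ifitm3 and Ifi44 given below reach into the windows shown.
Bst2, first ISRE core, 130 to 121 bases before the start, chr8:71537573-71537622: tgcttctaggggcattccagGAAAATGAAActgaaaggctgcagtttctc
Bst2, second ISRE core, 124 to 115 bases before the start, chr8:71537567-71537616: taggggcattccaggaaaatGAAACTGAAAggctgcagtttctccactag
Ifitm2, ISRE core, 46 to 37 bases before the start, chr7:140955978-140956027: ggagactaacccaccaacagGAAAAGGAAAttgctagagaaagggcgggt
Ifitm3, the same distance from its start, with no match, chr7:141010761-141010810: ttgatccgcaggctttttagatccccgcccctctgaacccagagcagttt
Ifi44, a pair of GAAA with 3 bases between them, on the opposite strand, 55 to 45 bases before the start, chr3:151749935-151749985: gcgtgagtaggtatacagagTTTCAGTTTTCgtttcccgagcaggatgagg
The last pattern was searched only after the Ifi44 promoter had been read, and 2.38% of all promoters held it. A further pattern, TTC and GAA with any 3 bases between them, was also searched. Bst2 held it 136 to 128 bases before the start, and 7.02% of all promoters held it somewhere in the window. Ifitm1, Ifitm3 and Ifi35 held none of these patterns in this window, which says only that these letters are not there. A match is a run of letters and not a measured binding site.

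The Ifitm genes lie within a short stretch of chromosome 7 and differed widely in level and in change. Ifitm3 (ENSMUSG00000025492, 141009586 to 141010770, minus strand) had the highest level of the 10 genes in the AP and pretreated mice. It was at 156 and 94.4 TPM in saline mice, 605 and 594 TPM in AP mice, then 1847 and 2039.6 TPM in the pretreated mice. The groups did not overlap, and the mean with polyI:C was 3.24 times that of AP mice and 15.5 times that of saline mice. Its log2 fold changes in these steps, AP against saline and pretreated against AP, were 2.30 and 1.69, with a standard error of 0.22.

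Ifitm2 (ENSMUSG00000060591, 140954837 to 140955987, minus strand), whose protein acts like Ifitm3 in late endosomes, was at 33.5 and 37.3 TPM, 55.0 and 63.3 TPM, and 71.1 and 70.4 TPM in the saline, AP and pretreated mice. The groups did not overlap, but its log2 fold change with polyI:C, 0.26 with a standard error of 0.19, was the smallest of the 10 genes. Its promoter is one of those with the ISRE core shown above. Of the 100-base stretches of its transcript, 34.9% also occur in other annotated genes (Gm11951, Gm45717 and Gm8865), so reads from them may not have been counted for Ifitm2. None of the other 9 genes shared such a stretch with another gene.

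Ifitm1 (ENSMUSG00000025491, 140967221 to 140969825, plus strand), which acts mainly at the plasma membrane, lies between them on the chromosome and had the lowest level of the 3 in every mouse. It was at 6.30 and 1.94 TPM in saline mice, 8.25 and 7.37 TPM in AP mice, then 11.7 and 9.99 TPM in the pretreated mice. An estimated 10 and 3 reads lay behind its saline values, and its standard error of 0.54 exceeded its log2 fold change with polyI:C of 0.45. Its log2 fold change in AP against saline mice was 1.03 with the same standard error and did not pass the threshold. It ran from 0.29 without saline replicate 2 to 1.77 without saline replicate 1, where it passed.

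In the pretreated mice the mean of Ifitm3 was 1944 TPM, against 70.7 TPM for Ifitm2 and 10.8 TPM for Ifitm1. The sum of the 3 genes went from 195 and 134 TPM in the saline mice to 669 and 665 TPM in AP mice, then to 1930.2 and 2120 TPM with polyI:C.

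The Ifi27 family genes lie next to each other on chromosome 12, and each had a different pattern. Ifi27l2b (ENSMUSG00000021208, 103450898 to 103457223, minus strand) had the largest log2 fold change of the 10 genes with polyI:C. In TPM, Ifitm3, Bst2 and Ifi27l2a differed by more. Ifi27l2b was at 8.77 and 3.08 TPM in saline mice, 8.99 and 20.3 TPM in AP mice, then 209 and 404 TPM in the pretreated mice. The pretreated mice differed widely, with a mean of 307 ± 138 TPM (SD, n = 2), yet both were far above every other mouse. The log2 fold change with polyI:C was 4.37 with a standard error of 0.56, the largest standard error of the 10 genes, and the estimated reads went from 21 and 60 in the AP mice to 599 and 1457. It passed the threshold in this comparison, and no longer did so without saline replicate 2, without AP replicate 1 or 2, or without pretreated replicate 1 or 2. The log2 fold change in AP against saline mice was 1.29 with the same standard error, with saline and AP values of 8.77 and 8.99 TPM side by side. It did not pass the threshold and ran from 0.60 without saline replicate 2 to 1.97 without saline replicate 1.

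Ifi27l2a (ENSMUSG00000079017, 103442167 to 103443680, minus strand) had levels of 91.7 and 50.9 TPM in saline mice, 354 and 516 TPM in AP mice, then 1071 and 977 TPM with polyI:C. In contrast to Ifi27l2b, its larger step was that of AP mice, with a log2 fold change of 2.64 against 1.26 with polyI:C (standard error 0.29). The groups did not overlap in either comparison. It did not pass the threshold with polyI:C, and it passed it with voom on estimated reads, a setting added after the data were seen.

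Ifi27 (ENSMUSG00000064215, 103434211 to 103440239, plus strand) had levels of 144 and 142 TPM in saline mice, 134 and 165 TPM in AP mice, then 282 and 293 TPM in the pretreated mice. The AP mice lay on either side of the saline mice, while the pretreated mice were above all others. Its log2 fold change came to 0.05 in AP against saline mice and 0.95 with polyI:C, with a standard error of 0.12. The former turned to -0.38 after median-of-ratios scaling. The mean with polyI:C was 1.93 times that of AP mice, just under the fold change of 2 that the threshold asks for. Against saline mice it passed the threshold with a log2 fold change of 1.01, and it did not pass after median-of-ratios scaling (0.55), with voom (0.73), without saline replicate 2 or without pretreated replicate 2.

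Ly6e (ENSMUSG00000022587, chromosome 15, 74955051 to 74959905, plus strand) followed the pattern of Ifi27. It was at 137 and 103 TPM in saline mice, 126 and 113 TPM in AP mice, then 230.3 and 238 TPM in the pretreated mice. The saline and AP mice overlapped, and both pretreated mice were above them. The log2 fold change came to 0.00 in AP against saline mice, or -0.43 after median-of-ratios scaling, and 0.97 with polyI:C, with a standard error of 0.15. The exons of Ly6e cover 3784 bases in the annotation, while its longest transcript has 2281 bases, so its TPM depends on which length the authors divided by.

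Ifi35 and Ifi44, the members inside the cell, differed at different steps. Ifi35 (ENSMUSG00000010358, chromosome 11, 101448407 to 101458698, plus strand), a leucine zipper protein that binds Nmi, was at 6.65 and 9.41 TPM in saline mice, 37.9 and 32.1 TPM in AP mice, then 66.5 and 55.1 TPM with polyI:C. The groups did not overlap, and the log2 fold changes were 2.07 in AP mice and 0.79 with polyI:C (standard error 0.22). Its partner gene Nmi went from 4.66 and 2.63 TPM to 27.0 and 33.8 TPM and to 47.6 and 48.3 TPM. The log2 fold changes of Nmi were 2.93 (adjusted p = 0.00036 from limma) and 0.66 (adjusted p = 0.34).

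Ifi44 (ENSMUSG00000028037, chromosome 3, 151730922 to 151749960, minus strand), a protein linked to microtubules and to the control of antiviral responses, had the lowest levels in the saline and AP mice. It was at 0.783 and 0.428 TPM in saline mice, 1.37 and 1.74 TPM in AP mice, then 15.7 and 17.9 TPM in the pretreated mice. Only the mice given polyI:C had more than 2 TPM. An estimated 7 and 3 reads lay behind the saline values, 18 and 29 behind the AP values, and 252 and 361 behind the values with polyI:C. The log2 fold changes of Ifi44 were 0.91 and 3.08 with a standard error of 0.23, and the scale of log2(TPM + 0.5) understates the change of so low a gene. The ratio of the group means was 2.57 in AP against saline mice and 10.8 with polyI:C.

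**Figure D3:**
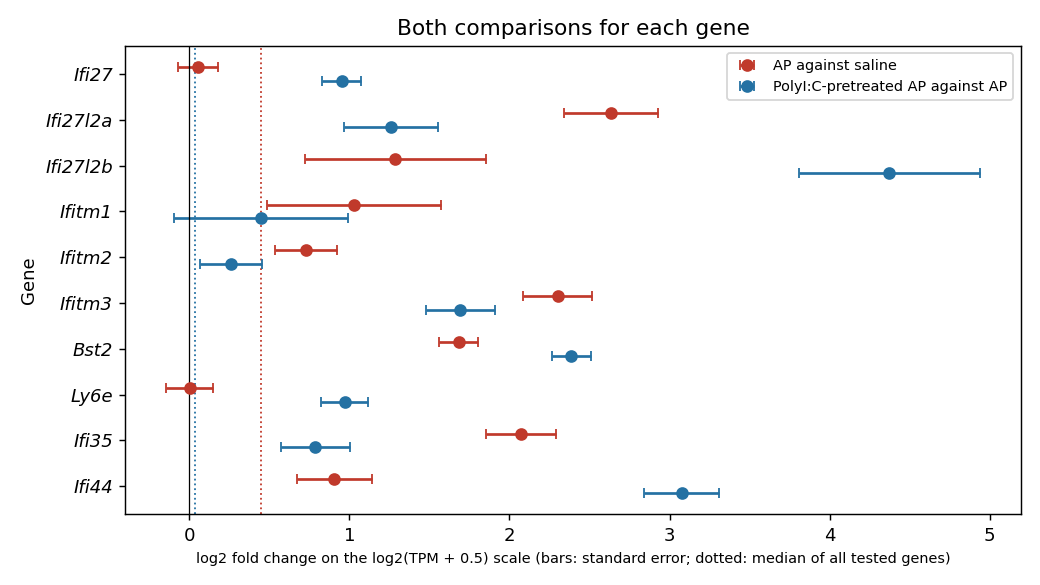
Log2 fold changes of the 10 genes on the log2(TPM + 0.5) scale (horizontal axis) in AP against saline mice and in pretreated against AP mice, with standard errors as bars and the medians of all tested genes, 0.45 and 0.04, as dotted lines. Ifi27 and Ly6e lie near 0 in the first comparison and near 1 in the second, Ifi27l2b, Ifi44 and Bst2 have the larger value in the second, and Ifi27l2a, Ifitm3 and Ifi35 in the first. Both comparisons use the same AP mice.

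Set side by side, the values gave an order in which the difference lay in different steps. Ifi27 and Ly6e had log2 fold changes of 0.05 and 0.00 in AP mice and of 0.95 and 0.97 with polyI:C. Ifi44, Ifi27l2b and Bst2 had the larger value at the second step. Ifi27l2a, Ifitm3 and Ifi35 had the larger value at the first, and for Ifitm1 and Ifitm2 the values with polyI:C were within about 1.5 standard errors of 0. The 2 comparisons share the AP mice, so an error in these mice would raise one value and lower the other.

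Levels per length could be ranked within each group. In the AP mice, each gene was above the next in both mice, in the order Ifitm3, Ifi27l2a, Bst2, Ifi27, Ly6e, Ifitm2, Ifi35, Ifi27l2b, Ifitm1 and Ifi44. With polyI:C, Ifi27l2b moved from place 8 to place 4 and could not be separated from Ifi27 at place 5 or from Ly6e at place 6, and Ifi27l2a overlapped with Bst2 at places 2 and 3. Ifi44 moved above Ifitm1 to place 9. In the saline mice Ifitm3 overlapped with both Ifi27 and Ly6e at the top, while Ifi27 was above Ly6e in both mice. Ifi27l2a overlapped with Bst2. Lower down, Ifi27l2b overlapped with both Ifi35 and Ifitm1, while Ifi35 was above Ifitm1 in both mice.

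For comparison, a list of 46 other interferon-induced genes was examined, of which 44 had values. Between saline and AP mice 34 of them rose past the threshold, in pretreated against AP mice 14 did, and in pretreated against saline mice 43 did, with median log2 fold changes of 1.71, 1.23 and 3.21. Over all tested genes, 18.2%, 0.44% and 16.9% rose past it in these comparisons. None of the list fell past it in any of the 3 comparisons. The 14 became 0 without AP replicate 1, without AP replicate 2 or without either pretreated mouse, and 8 without saline replicate 2. This list too was written with earlier results of these data known.

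Irf7, the transcription factor that amplifies interferon production, rose most of the list with polyI:C. It was at 0.604 and 0.878 TPM in saline mice, 3.15 and 6.14 TPM in AP mice, then 79.0 and 79.2 TPM in the pretreated mice, a log2 difference of 4.01 with a standard error of 0.28 (limma, adjusted p = 0.0037). Ifit3b and Ifit1, which encode RNA-binding effectors, followed with 3.35 (adjusted p = 0.0065) and 3.23 (adjusted p = 0.031), with reads that may be shared between closely related Ifit genes. Isg15, a ubiquitin-like modifier, went from 6.81 and 13.2 TPM in AP mice to 65.6 and 73.8 TPM (log2 fold change 2.81, adjusted p = 0.025).

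Rsad2, which encodes viperin, rose most in AP mice, from 3.91 and 2.97 TPM to 70.3 and 94.8 TPM (log2 fold change 4.39, adjusted p = 3.4e-05 from limma), and changed by 0.84 with polyI:C (adjusted p = 0.093). Oas1a, a sensor of double-stranded RNA, rose by 2.84 and then by 2.66 (adjusted p = 0.00049 and 0.016). Tap1, the peptide transporter of antigen presentation, rose by 2.74 in AP mice (adjusted p = 0.00023) and had a log2 fold change of 0.70 with polyI:C (adjusted p = 0.21). Mx1 rose by 2.45 in AP mice (adjusted p = 0.0023), to 3.58 and 4.92 TPM, and was at 4.20 and 3.05 TPM with polyI:C (log2 fold change -0.20, adjusted p = 0.87). Like the 10 genes above, the list thus held genes with the larger step in AP mice and genes with the larger step with polyI:C.

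Of 17 further genes of the Ifitm, Ifi44 and Ly6 families and the Ifi35 partner Nmi, 14 had values and 8 reached the mean of 1 TPM. Between AP and saline mice 4 of the 8 rose past the threshold, beside 18.2% of all tested genes, and with polyI:C 1 did, beside 0.44%. That gene was Ly6a, a surface antigen of stem cells and activated lymphocytes, which is encoded near Ly6e on chromosome 15. It was at 9.72 and 12.9 TPM in saline mice, 61.8 and 85.9 TPM in AP mice, then 375 and 429 TPM in the pretreated mice, and its log2 fold changes were 2.65 and 2.45 (adjusted p = 0.00020 and 0.0058 from limma). Its call with polyI:C did not hold without AP replicate 1, without AP replicate 2 or without either pretreated mouse, each of which left 0 of these genes.

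Ifitm6, next to Ifitm3 on chromosome 7, went the other way. It was at 1.27 and 0 TPM in saline mice, 4.997 and 6.70 TPM in AP mice, then 0.354 and 0.141 TPM in the pretreated mice. It rose by 2.74 in AP mice (adjusted p = 0.036 from limma) and was lower with polyI:C by a log2 fold change of -3.09 with a standard error of 0.82 (adjusted p = 0.15), with both pretreated mice below both AP mice. The rise of Ifitm6 ran from 1.83 to 3.65 with a mouse left out, and of these fits only that without saline replicate 1 passed the threshold. It passed neither after median-of-ratios scaling nor with voom. Ly6d, an epithelial and lymphoid surface protein, rose by 4.60 in AP mice (adjusted p = 0.010) from 0 and 4.53 TPM, and its log2 fold change with polyI:C was -1.37 (adjusted p = 0.62). The rise of Ly6d ran from 2.94 to 6.27 with a saline mouse left out, and it did not pass without AP replicate 1, AP replicate 2 or pretreated replicate 1, each of which left 2 of these genes past it in that comparison.

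Markers of other cell types were followed in the same mice. In bulk tissue, fewer cells of a type and less RNA per cell cannot be told apart. Over all tested genes, 18.2% rose and 4.03% fell past the threshold in AP mice, and 0.44% rose and 0.404% fell past it with polyI:C. Both AP mice were above both saline mice for 52.6% of all tested genes. Both pretreated mice were above both AP mice for 27.7% and below them for 22.1%. Of the acinar list, 10 of 24 genes had values, and their sum fell from 151280 and 142410 TPM in the saline mice to between 44590 and 59854 TPM in the other 4. Sycn, the acinar zymogen granule protein syncollin, alone was at 98753 and 86866 TPM in saline mice, and with Spink1 it made up most of the sum. Single acinar genes differed from the sum at the polyI:C step, where 7 of the 10 were higher in both pretreated mice and 3 of the 9 tested rose past the threshold, with a median log2 fold change of 0.55. These were Bhlha15, a transcription factor of secretory cells, at 53.6 and 46.4 TPM in AP mice against 161 and 171 TPM in the pretreated mice, the receptor gene Cckar at 166 and 184 against 517 and 594 TPM, and the acinar transcription factor gene Rbpjl at 104 and 79.8 against 196 and 191 TPM. The rise of these 3 runs in the same direction as the 10 genes at that step. Only Sycn was lower in both pretreated mice, at 14466 and 11044 TPM against 31898 and 21348 TPM in AP mice. Its log2 fold change of -1.05 did not pass the threshold. In AP mice 6 of the 9 tested acinar genes fell past it. All 12 monocyte and macrophage markers had values, and their summed level was 483 to 754 TPM in saline mice, 2643 to 3086 TPM in AP mice, then 479 to 616 TPM in the pretreated mice. None of these 12 was at 0 in all mice. In pretreated against AP mice, 6 of the 12 fell past the threshold, all 12 were lower in both mice, and their median log2 fold change was -1.89. This list thus moved against the 10 genes at that step. In AP against saline mice, 10 of the 12 rose past the threshold, and 4 of the 10 genes did.

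The 7 endothelial markers had a median log2 fold change of -0.06 in AP mice and 0.12 with polyI:C, with values from -0.31 to 0.12 and from -0.06 to 0.29, and none of them passed the threshold. The 7 stellate cell and fibroblast markers had medians of 1.16 and -0.39, with 4 and 0 past the threshold. The summed level of the 10 T and NK cell markers was 2.15 to 9.46 TPM in the saline and AP mice and 32.3 and 53.7 TPM with polyI:C. Most of the latter came from Gzma, listed at 0 in the other 4 mice and at 26.9 and 47.0 TPM in the pretreated mice, while Cd3e was at 0 to 0.35 TPM over the 6 mice. The 6 duct markers summed to 181 and 152 TPM in saline mice and to 1493 and 1454 TPM in AP mice. Their sums were 1158 and 1188 TPM in the pretreated mice. In AP mice 4 of 6 rose past the threshold (median log2 fold change 1.65), as did 4 of the 10 genes. Of those 10, Ifi27 and Ly6e overlapped between saline and AP mice. The 8 neutrophil markers with values summed to 16.9 and 5.15 TPM, 69.6 and 59.9 TPM, and 44.3 and 21.96 TPM, with 2 of the 5 tested past the threshold in AP mice. The 7 islet markers summed to 2198 and 1849 TPM, 2327 and 1752 TPM, and 1295 and 1643 TPM, and 4 of 7 were lower in both pretreated mice than in both AP mice. The 5 B cell and plasma cell markers summed to between 7.02 and 65.9 TPM with overlap between the groups, and the 7 dendritic cell markers to 7.01 and 6.29 TPM, 9.72 and 14 TPM, and 4.51 and 3.85 TPM. The part of cell composition in the levels of the 10 genes was not tested.

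**Figure D4:**
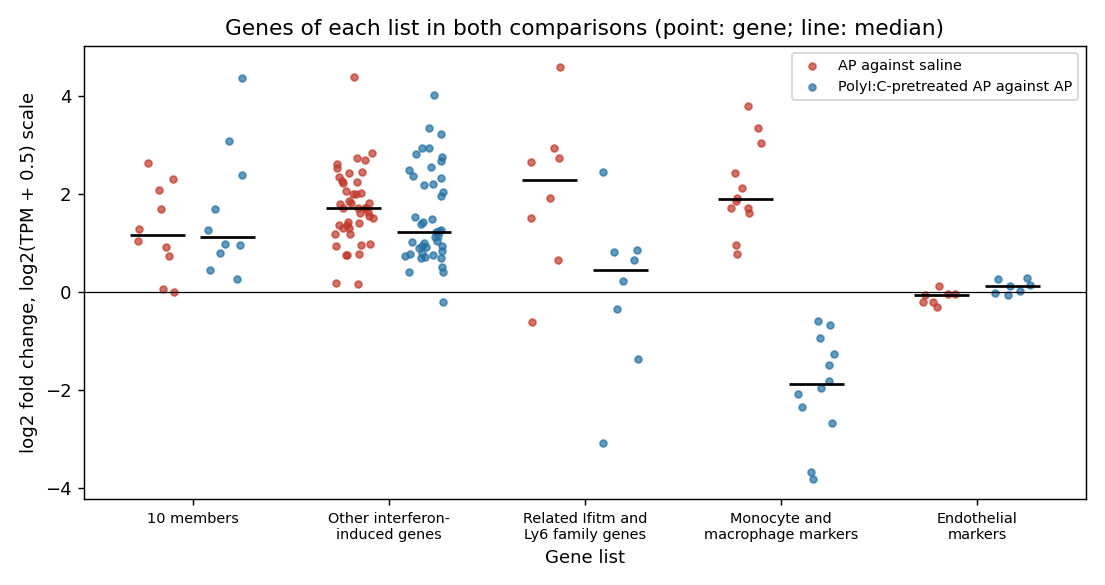
Log2 fold changes on the log2(TPM + 0.5) scale (vertical axis) of the tested genes of 5 lists, in AP against saline mice and in pretreated against AP mice, with points for genes and lines for medians. The medians of the 10 members are 1.16 and 1.12 and those of the other interferon-induced genes 1.71 and 1.23, while those of the monocyte and macrophage markers are 1.89 and -1.89.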

How the data were processed

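The authors used Trimmomatic for trimming, STAR for alignment to mm10 and HTSeq for counts per gene, per the labels and the methods of the study. The deposited values are TPM, which have the same total in each mouse, and how TPM were made from counts is not given in the sources used here. Ensembl identifiers were matched to GENCODE M21 (GRCm38), which held 22490 of 22556. Groups were taken from the treatment in the sample labels. The members and gene lists were chosen with earlier results of these data known.

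Log2(TPM + 0.5) of all 6 mice was fitted with limma 3.58.1 (R 4.3.3) with 1 coefficient per group, for genes whose mean reached 1 TPM. The prior variance followed log2(mean TPM × exon length + 1). Adjustment was by Benjamini-Hochberg over all tested genes. With 2 mice against 2, an exact two-sided permutation test can give no p under 0.333, so single adjusted p-values rest on the spread that limma shares between genes. The fit was tested on simulated data.

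Depth is not stated in TPM tables. Low TPM values multiplied by exon length fell within 0.1 of whole multiples of a single step in 51.2% to 62.4% of cases (19.3% to 20.6% with shuffled lengths), which gave estimates of 3296080 and 3974437 reads for the saline mice and 6932908 to 10851999 for the others. Low genes are least precise in the saline mice, which had the fewest estimated reads. These estimates count only reads of the listed genes. Of the acinar list, only 10 of 24 genes were listed, so the size of the whole libraries is not known. Between the mice of a group, the median absolute log2 difference was 0.193 to 0.289.

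Members, the gene most like each member, the 3 largest rises and falls past the threshold on each list, and Isg15, Irf7 and Mx1 were named by rule, and 1 further gene of the rule is not reported here. Siglech, Sycn, Gzma and Cd3e come from the marker lists. Alternatives covered pseudocounts, filters, scaling, priors, the replicate block and leaving out each mouse, with voom on estimated reads added later. Promoters were taken from RefSeq (GRCm38.p6), and shared sequence was counted over 100-base stretches of M21 transcripts. Protein sequences were not analysed here.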

Additional observations from a re-analysis of the deposited data

How the results depend on the processing

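Of the log2 fold changes of the 10 genes and of 13 other genes of the naming rule, 964 values under alternative settings kept their direction and their side of the threshold, 111 were no longer past it, 14 were newly past it and 9 changed sign. Between AP and saline mice, Ifi27 was at -0.38 after median-of-ratios scaling, -0.19 with voom on estimated reads and -0.10 without AP replicate 2 (-0.10 to 0.21 with a mouse left out), and Ly6e was at -0.43 after the same scaling, -0.26 with voom, -0.20 without saline replicate 2 and -0.08 without AP replicate 1 (-0.20 to 0.21). Mx1 with polyI:C was at 0.00188 without AP replicate 2 (-0.41 to 0.00188), and Ifitm6 in pretreated against saline mice was at 0.57 without saline replicate 1 (-1.26 to 0.57). Of the 10 genes, 4 passed in pretreated against AP mice, and 2 did without a filter on low values, 1 with a prior following the mean log2 value, 2 with a single prior variance, and 0 to 4 with a mouse left out. Of the other interferon-induced genes, 14 passed there, and 7, 3 and 1 did under the same settings, 22 with voom, and 0 to 11 with a mouse left out. Of the related family genes, 4 passed in AP mice, or 2 to 5 with a mouse left out, and 1 passed with polyI:C, or 0 with a single prior variance and 0 to 1 with a mouse left out. Over all genes, 74 rose with polyI:C, against 44, 14 and 22 under these settings, 112 with voom, 120 by adjusted p alone and 0 to 63 with a mouse left out. In AP against saline mice 3053 genes rose and 677 fell, against 1564 and 1226 after median-of-ratios scaling, and in pretreated against saline mice 2838 and 500, against 1324 and 984. The cause of these differences was not tested. With a mouse left out, the lone mouse of its group is assumed to vary like the others.

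Same-numbered mice did not deviate together over the tested genes as a whole, with correlations across genes of 0.0075, 0.0351 and -0.00385 between groups. Each group gives only the difference between its own replicates, and a shared factor that touches few genes could be missed. Whether the numbers pair the mice therefore cannot be decided from these correlations. With the replicate number as a block, the call of no member changed, 4, 4 and 7 members passed in the 3 comparisons, and 13 other interferon-induced genes passed with polyI:C. Low read numbers limit Ifitm1, Ifi44 and Ifi27l2b in the saline mice.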

Other observations

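Among 3577 genes whose mean reached 10 TPM and whose SD over the mice reached 0.5 on the log2 scale, the gene most like each member over the 6 mice was named by its Pearson r, as a description without a test, since the mice form 3 groups and many genes reach high values. For Bst2 it was Lgals3bp (r = 0.998), which went from 18.2 and 18.4 TPM in the saline mice to 49.7 and 61.9 TPM in the AP mice and to 211 and 250 TPM with polyI:C. For Ifitm3 it was Lgals9 (r = 0.999), at 13.7 and 7.03, 70.8 and 67.4, and 242 and 252 TPM. For Ifi27 it was the class I gene H2-Q6 (r = 0.994), at 6.71 and 7.88, 5.63 and 14.5, and 68.4 and 65.8 TPM, and for Ifi27l2b it was Oasl2 (r = 0.992). An r above 0.95 was reached by 79 genes for Bst2, 244 for Ifitm3, 15 for Ifi27, 28 for Ifi27l2b, 7 for Ly6e and 707 for Ifitm2. The genes most like the others were Midn for Ifi27l2a, Traf3ip2 for Ifitm1, Psmb5 for Ifitm2, Dhx34 for Ifi44, B9d1 for Ifi35 and Dpp9 for Ly6e.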
